A study of Mus musculus with 15 samples.

Results

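The integrated stress response and the unfolded protein response were followed through 10 genes, chosen by symbol from a table of 18279 genes: *Atf4*, *Ddit3*, *Atf3*, *Trib3*, *Ppp1r15a*, *Chac1*, *Asns*, *Xbp1*, *Hspa5* and *Herpud1*. All 10 were found, and all 10 were among the 18250 genes with a value above 0 in at least 1 tumor. They were measured by bulk RNA sequencing in 15 tumors of Renca cells, a renal carcinoma line that arose in a BALB/c mouse. Every tumor grew from cells in Matrigel placed under the skin of a female BALB/c mouse aged 4 to 6 weeks at purchase, in a host with its own immune system.

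Tumors 1 to 5 were control tumors, called parental Renca cells by the sample labels and control knockout cells by the study's methods. Tumors 6 to 10 came from *Pbrm1* knockout clone 4 and tumors 11 to 15 from *Pbrm1* knockout clone 18. *Pbrm1* encodes a subunit of the PBAF chromatin remodeling complex. The knockout cells were made by transient CRISPR/Cas9 with a repair plasmid and were grown from single cells, so each knockout group was 1 clone and a difference between a clone and the controls cannot be told apart from other traits of that clone. Some mice of the study received PD-1 antibody. The labels do not say which of these tumors, if any, were treated. Tumors were taken at about 1000 mm3, at ulceration or at signs of distress.

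Cells sense amino acid shortage, viral RNA, low heme or unfolded protein in the endoplasmic reticulum (ER) through kinases that phosphorylate the translation factor eIF2. General translation then slows while the message of *Atf4* is translated more, and the ATF4 protein switches on genes for amino acid supply, further transcription factors and genes that end the response. The ER adds its own branches, in which IRE1 splices *Xbp1* and ATF6 is cut free, and both raise chaperones and factors that clear misfolded protein. Secretory cells, and tumors short of oxygen or nutrients, are known for high activity of these responses. Much of the control acts on translation and splicing, which gene-level RNA counts do not show.

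The elements by which these factors act were looked for in the promoters, to show how the 10 genes differ in regulation as written in the genome. RefSeq windows of 300 bases (250 before to 50 after the transcription start, GRCm38.p6) matched all 10 genes. The C/EBP-ATF element bound by ATF4, spelled TGATGNAA and searched on both strands, was in the windows of 5 of the 10 genes and in 3.97% of all 32851 windows. Each stretch below runs 5′ to 3′ along the gene, with the element in capitals (read from the other strand in all but *Asns*).
Atf3 (chr1:191183420-191183459, minus strand): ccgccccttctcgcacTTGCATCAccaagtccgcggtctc
Chac1 (chr2:119351033-119351072, plus strand): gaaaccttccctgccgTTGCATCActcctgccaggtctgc
Trib3 (chr2:152344023-152344062, minus strand): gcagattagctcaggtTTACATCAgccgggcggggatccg
Asns (chr6:7693209-7693248, minus strand): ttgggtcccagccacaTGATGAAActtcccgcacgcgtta
Herpud1 (chr8:94386301-94386340, plus strand): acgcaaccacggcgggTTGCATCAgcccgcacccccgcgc
The window of *Atf3* follows a RefSeq start inside the span that GENCODE gives the gene. The first base of the element lay at -110 from the start in *Atf3*, -193 in *Chac1*, 14 in *Trib3*, -23 in *Asns* and -112 in *Herpud1*. The ER stress response element, spelled CCAAT, any 9 bases, then CCACG, was found in *Hspa5* alone of the 10 and in 0.119% of all windows, beginning at -65.
Hspa5 (chr2:34772009-34772059, plus strand): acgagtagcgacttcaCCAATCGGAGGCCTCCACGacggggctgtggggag
A cAMP response element, spelled TGACGTCA, was in *Ppp1r15a* alone of the 10, beginning at -12, and in 1.79% of all windows.
Ppp1r15a (chr7:45526257-45526296, minus strand): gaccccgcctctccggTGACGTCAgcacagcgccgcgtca
The unfolded protein response element TGACGTGG was in none of the 10 windows and in 0.676% of all windows. A gene can have several windows. Counted by gene, over 27025 genes, the shares were 4.51% for the C/EBP-ATF element and 0.137% for the ER stress response element. They were 2.03% for the cAMP response element and 0.714% for TGACGTGG. *Atf4*, *Ddit3* and *Xbp1* held none of these spellings in these windows. A match is a description of the letters and not a measured binding site.

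The tumors held 32924414 to 49099168 reads assigned to genes. *Pbrm1* fell from 7452 to 9871 normalized counts in the controls to 2484 to 3138 in the 10 knockout tumors, with no overlap (log2 difference -1.69 ± 0.07 (SE), adjusted p = 2.94e-11). Renal epithelial markers were present in every group, with *Krt8* at a mean of 59687 normalized counts in control, 51995 in clone 4 and 50903 in clone 18 tumors. Of the marker lists of other cells, macrophage genes were called lower in knockout tumors in 6 of 11 cases and plasma and B cell genes in 4 of 12. T and NK cell genes were called lower in 3 of 12 cases, neutrophil genes in 2 of 9, and endothelial and adipocyte genes in 1 of 9 and 1 of 6. Of all tested genes 12.9% were called lower in the same comparison. Of 9 fibroblast, 2 keratinocyte and 5 red cell genes 0 were called by limma, edgeR or DESeq2 and 0 had an unadjusted p under 0.05. Of 9 skeletal muscle genes limma called 0 (3 at an unadjusted p under 0.05), while edgeR and DESeq2 each called 5, and of 11 renal epithelial genes 1 was called higher and 1 lower.

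*Chac1* and *Herpud1* were lower and *Xbp1* was higher in knockout than in control tumors, and the remaining 7 did not pass the test (limma on log2 of normalized count plus 1, Benjamini-Hochberg adjusted p under 0.05 over 18250 genes). These 3 of 10 stand beside 22.1% of all tested genes called in the same comparison, so the count of members called was near the background. The 10 log2 differences ran from -0.49 to 0.30 with a median of 0.02, and the median over all tested genes was -0.02. In size, the members' median absolute log2 difference was 0.19 that of all tested genes was 0.20, and it was 0.12 for 7725 genes whose mean reached 1000 normalized counts, as that of each member did. Of those 7725 genes 25.9% were called. Not one of the 10 genes separated all 10 knockout tumors from all 5 controls, which 7.98% of all tested genes did. In bulk tumor RNA, fewer cells of a type and less RNA per cell cannot be told apart.

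**Figure D1:**
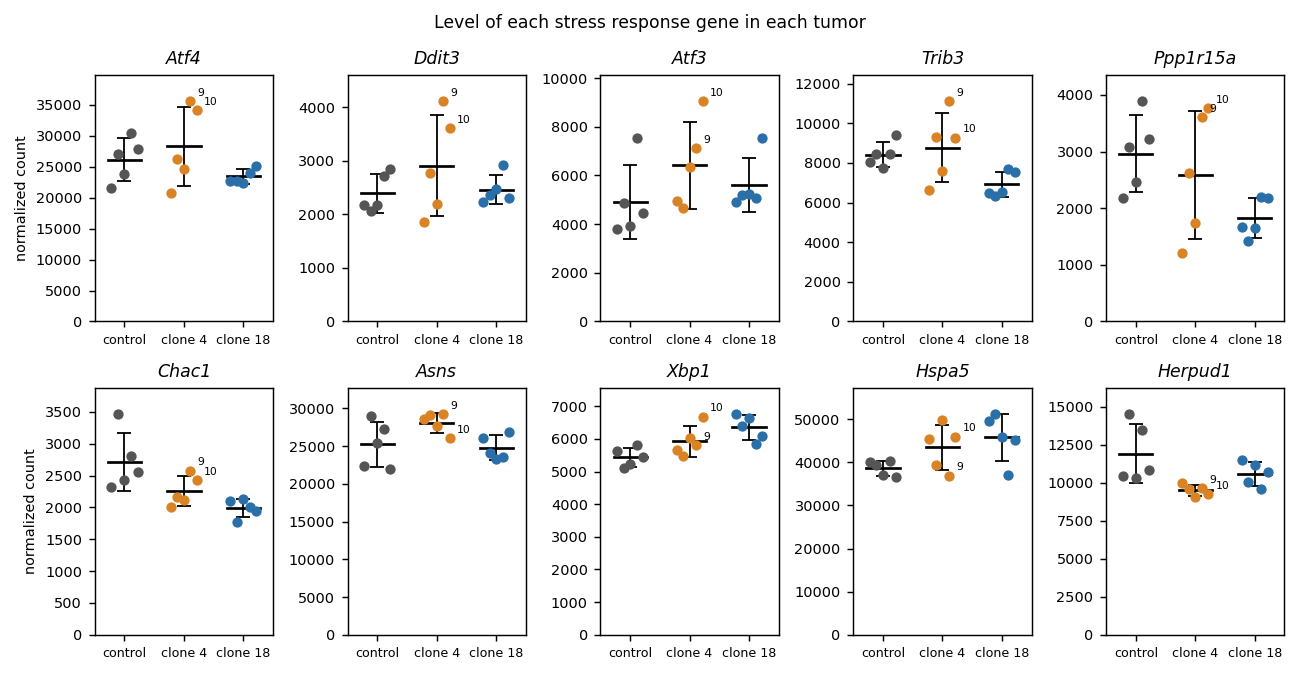
Each panel plots 1 gene, with the normalized count on a linear y axis from 0 and a point for each tumor of the control, clone 4 and clone 18 groups; lines and bars are the mean and SD of 5 tumors, and tumors 9 and 10 are numbered. *Chac1* lies below every control in 8 of 10 knockout tumors, *Xbp1* lies above every control in 7 of 10, and tumors 9 and 10 lie at the top of clone 4 for *Atf4*, *Ddit3*, *Atf3* and *Ppp1r15a*.

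*Atf4* (GRCm38 chr15:80255184-80257541, plus strand) encodes the central transcription factor of the integrated stress response. Its normalized counts in control tumors 1 to 5 were 21562, 27006, 23890, 30494 and 27803. In clone 4 they were 20809, 26295, 24586, 35606 and 34142 for tumors 6 to 10, and in clone 18 22757, 22746, 22432, 23963 and 25158 for tumors 11 to 15. Tumors 9 and 10 of clone 4 were the highest of all, tumor 6 the lowest, and clone 18 lay wholly inside the control range. Knockout and control tumors did not differ past the threshold (log2 difference -0.03 ± 0.12 (SE), adjusted p = 0.904; exact permutation p = 0.832), and the 95% interval of the log2 difference was -0.28 to 0.22. The sign of this difference turned when control tumor 4 or clone 4 tumor 6 was left out, to 0.03 and 0.0042.

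*Ddit3* (GRCm38 chr10:127290774-127296288, plus strand) encodes CHOP, a transcription factor that promotes cell death when stress lasts. Its counts were 2164, 2057, 2176, 2709 and 2852 in the controls. They were 1859, 2768, 2183, 4114 and 3601 in clone 4 and 2236, 2362, 2474, 2913 and 2310 in clone 18. The groups overlapped, again with tumors 9 and 10 highest and tumor 6 lowest. No difference was called (log2 difference 0.14 ± 0.15 (SE), adjusted p = 0.568; exact permutation p = 0.441; 95% interval -0.18 to 0.46). An exon of *Ddit3* overlaps *Mars*, the methionyl-tRNA synthetase gene on the other strand, and it is not stated whether reads were counted by strand. *Mars* itself was higher in every knockout tumor than in every control (log2 difference 0.33 ± 0.06 (SE), adjusted p = 0.00098). Reads of the pair cannot be told apart where they overlap if strand was not used.

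*Atf3* (GRCm38 chr1:191170296-191218039, minus strand) encodes a stress-induced transcription factor that ATF4 and many other signals raise. Control tumors read 3788, 4881, 3918, 7533 and 4447 normalized counts. Clone 4 read 4943, 4651, 6348, 7112 and 9059, and clone 18 read 4889, 5182, 5246, 5091 and 7553. The spread was wide in every group, with tumor 4 far above the other controls, tumor 10 highest in clone 4 and tumor 15 highest in clone 18. The difference between knockout and control tumors was not called (log2 difference 0.30 ± 0.17 (SE), adjusted p = 0.22; exact permutation p = 0.143). Without tumor 4 the log2 difference was 0.47 and passed, with an adjusted p of 0.0425, so this result rested on 1 control tumor.

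*Trib3* (GRCm38 chr2:152337422-152344032, minus strand) encodes a pseudokinase that ATF4 and CHOP induce and that damps them in turn. It read 8045, 8461, 7762, 8447 and 9391 in controls. It read 6626, 9296, 7571, 11129 and 9266 in clone 4 and 6490, 6338, 6529, 7708 and 7527 in clone 18. All 5 clone 18 tumors lay below all 5 controls, while clone 4 spanned the control range on both sides. With both clones as 1 group no difference was called (log2 difference -0.12 ± 0.12 (SE), adjusted p = 0.495; exact permutation p = 0.359).

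*Ppp1r15a* (GRCm38 chr7:45522916-45526268, minus strand) encodes GADD34, which brings a phosphatase to eIF2 and so ends the response. Control tumors held 2171, 3080, 2463, 3893 and 3215 normalized counts. Clone 4 held 1202, 2629, 1743, 3608 and 3767, and clone 18 held 1666, 1427, 1645, 2206 and 2185. Tumor 6 was lowest of all, tumors 9 and 10 stood between the highest control and the next, and 3 of 5 clone 18 tumors fell below every control. This was the member with the largest log2 difference and also with the largest spread, a coefficient of variation of 43.5% in clone 4, and it was not called (log2 difference -0.49 ± 0.23 (SE), adjusted p = 0.148; exact permutation p = 0.0912; 95% interval -0.98 to -0.0014). An exon overlaps *Tulp2* on the other strand, which held 0 to 16 normalized counts in these tumors.

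*Chac1* (GRCm38 chr2:119351229-119354381, plus strand) encodes an enzyme that degrades glutathione and is a target of ATF4. Its control counts were 2320, 3463, 2437, 2813 and 2562. Those of clone 4 were 2003, 2167, 2110, 2576 and 2424, and those of clone 18 were 2094, 1769, 2136, 2005 and 1946. All 10 knockout tumors lay below the control mean of 2719 ± 454 (SD, n = 5), and 8 of 10 lay below every control, with tumors 9 and 10 the exceptions. *Chac1* fell by 0.35 ± 0.09 (SE) on the log2 scale, with an adjusted p of 0.011 and an exact permutation p of 0.00266. It passed in each of the 24 other settings and left-out tumors tried, with adjusted p from 0.00299 to 0.0417.

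*Asns* (GRCm38 chr6:7675169-7693254, minus strand) encodes asparagine synthetase, a standard ATF4 target. It read 22352, 28999, 25456, 27255 and 22003 in controls. It read 28557, 29107, 27640, 29212 and 26019 in clone 4 and 26128, 24048, 23351, 23518 and 26907 in clone 18. In clone 4 all 5 values were above the control mean and 2 were above every control, while clone 18 lay inside the control range. No difference was called (log2 difference 0.07 ± 0.08 (SE), adjusted p = 0.563; exact permutation p = 0.358), and the 95% interval of the log2 difference, -0.09 to 0.24, spanned 0. The windows of *Asns* and *Chac1* both hold the C/EBP-ATF element shown above, and whether the changes of these genes differ from each other was not tested.

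*Xbp1* (GRCm38 chr11:5520659-5525893, plus strand) encodes the transcription factor whose message IRE1 splices; the gene counts sum both forms. Control tumors read 5629, 5098, 5229, 5818 and 5438. Clone 4 read 5653, 5464, 6038, 5806 and 6680, and clone 18 read 6755, 6392, 6655, 5847 and 6103. All 10 knockout tumors lay above the control mean, 7 of them above every control, and all 5 of clone 18 were among these 7. *Xbp1* was called higher (log2 difference 0.17 ± 0.06 (SE), adjusted p = 0.0416; exact permutation p = 0.00833), which is a 1.13-fold change. The call was lost without any 1 of tumors 1, 2, 3, 5, 8, 10, 11, 12, 13 or 15, with log2 differences of 0.15 to 0.18 and adjusted p up to 0.114, and in limma without trend (adjusted p = 0.0622).

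*Hspa5* (GRCm38 chr2:34771970-34777547, plus strand) encodes BiP, the main ER chaperone, and is the gene whose window holds the ER stress response element. Its control counts were 39973, 39302, 37135, 40327 and 36520. In clone 4 they were 45329, 39408, 49717, 36914 and 45978, and in clone 18 49696, 51140, 45856, 37110 and 45206. The controls lay close together, with a coefficient of variation of 4.45%, while 7 of 10 knockout tumors were above all of them and tumors 9 and 14 were each below 4 of the 5 controls. The difference missed the adjusted threshold (log2 difference 0.20 ± 0.08 (SE), adjusted p = 0.102), with an exact permutation p of 0.0273 before any adjustment. It passed under quantile normalization (adjusted p = 0.0248), by DESeq2 (adjusted p = 0.0376) and without tumor 9 (log2 difference 0.23, adjusted p = 0.0487), while edgeR gave an adjusted p of 0.054.

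*Herpud1* (GRCm38 chr8:94386438-94395377, plus strand) encodes an ER membrane protein that helps clear misfolded protein. It read 10427, 14496, 10307, 13475 and 10857 in the controls. It read 9956, 9594, 9040, 9630 and 9225 in clone 4 and 11476, 10028, 11154, 9603 and 10672 in clone 18. Controls 2 and 4 were well above the other 3, clone 4 lay wholly below the controls, and clone 18 overlapped them. The gene was called lower over both clones (log2 difference -0.24 ± 0.08 (SE), adjusted p = 0.048; exact permutation p = 0.0146). The call was lost without any 1 of tumors 2, 4, 5, 6, 7, 8, 9, 10, 12 or 14, and without tumor 2 the log2 difference was -0.16 with an adjusted p of 0.172. It was also lost under upper quartile and quantile normalization, in limma without trend and by edgeR, with adjusted p of 0.0597, 0.0796, 0.0744 and 0.0671.

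**Figure D2:**
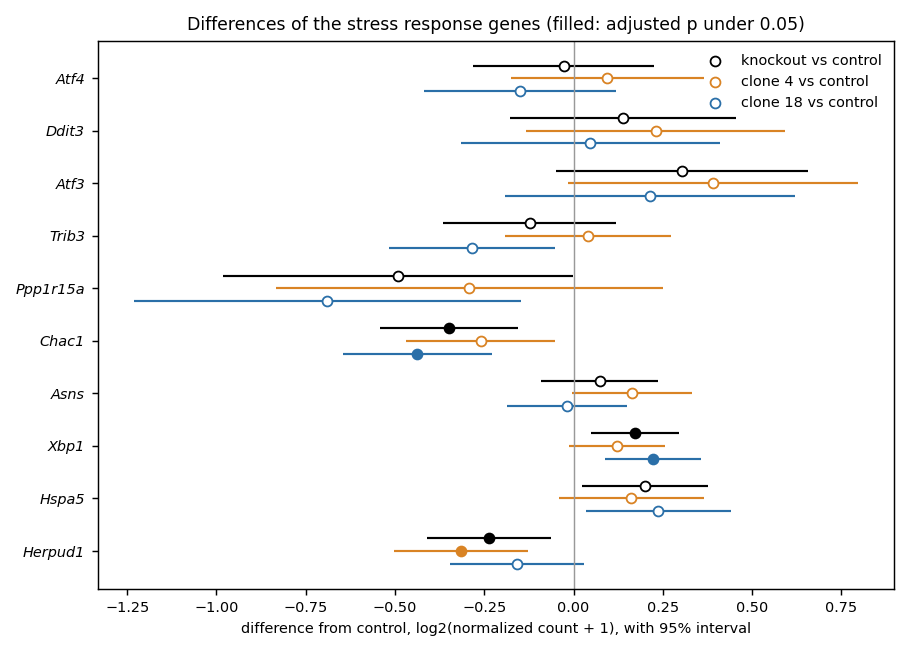
Points are the log2 differences from control of the 10 genes (x axis, log2 of normalized count plus 1) for both clones together, clone 4 and clone 18, with 95% intervals from limma; filled points passed an adjusted p under 0.05. Filled points are *Chac1*, *Xbp1* and *Herpud1* for both clones together, *Herpud1* for clone 4, and *Chac1* and *Xbp1* for clone 18.

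The clones were next set beside each other. Both clone comparisons used the same 5 control tumors, so their values are given side by side and not as 2 independent results. In clone 4, 1 of 10 genes was called, against 16.8% of all tested genes, and this was *Herpud1* (log2 difference -0.31 ± 0.09 (SE), adjusted p = 0.0217); the call was lost without tumor 2, 4 or 8, with adjusted p of 0.0563, 0.0619 and 0.0539. In clone 18, 2 of 10 were called, against 24.7% of all tested genes. These were *Chac1* (log2 difference -0.44 ± 0.10 (SE), adjusted p = 0.00381) and *Xbp1* (log2 difference 0.22 ± 0.06 (SE), adjusted p = 0.0163). *Chac1* in clone 4 gave a log2 difference of -0.26 with an adjusted p of 0.0823, and passed without control tumor 1 (adjusted p = 0.0476). *Xbp1* in clone 4 gave 0.12 with an adjusted p of 0.216.

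Separation of each clone from the controls was seen for the same genes and for *Trib3*. *Herpud1* was the 1 member without overlap in clone 4, where 14.0% of all tested genes had none. *Trib3*, *Chac1* and *Xbp1* were the 3 members without overlap in clone 18, where 17.1% of all tested genes had none. *Trib3* in clone 18 missed the threshold (log2 difference -0.29 ± 0.11 (SE), adjusted p = 0.0685) and passed without tumor 6 or tumor 9 of clone 4 (adjusted p = 0.0331 and 0.0362), which the fit used only for the shared spread, and in a fit of clone 18 and control tumors alone (adjusted p = 0.0158). *Ppp1r15a* in clone 18 behaved likewise (log2 difference -0.69 ± 0.26 (SE), adjusted p = 0.0588), and passed without tumor 6, 9 or 10, with adjusted p of 0.0194, 0.0497 and 0.0438, in the fit of those groups alone (adjusted p = 0.00891) and by DESeq2 (adjusted p = 0.0496). *Hspa5* in clone 18 (log2 difference 0.24 ± 0.10 (SE), adjusted p = 0.0831) passed under upper quartile and quantile normalization, by edgeR and by DESeq2 (adjusted p = 0.0489, 0.016, 0.0412 and 0.0267), and without its own tumor 14, at a log2 difference of 0.31. *Atf3* in clone 4 (log2 difference 0.39 ± 0.19 (SE), adjusted p = 0.188) passed without control tumor 4, at 0.56.

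Between the clones, limma called 0 of 10 members, against 4.62% of all tested genes. At an unadjusted p under 0.05 it found 2, *Trib3* and *Asns*, and edgeR and DESeq2 on the recovered reads also called 0 after adjustment. *Trib3* gave clone 18 minus clone 4 values (log2 difference -0.33 ± 0.11 (SE), adjusted p = 0.11; 95% interval -0.56 to -0.09) that passed the threshold only when tumor 6 was left out, of the alternatives run (adjusted p = 0.0232). *Asns* gave -0.18 with a 95% interval of -0.35 to -0.01, and *Herpud1* gave 0.16 with an interval of -0.03 to 0.34. The intervals of *Ppp1r15a* (-0.94 to 0.14) and *Atf3* (-0.58 to 0.23) were wide enough to hold differences larger than any member showed between knockout and control tumors.

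Levels can be compared between genes only per length, here as normalized counts per 1000 bases of merged exons over all 15 tumors (mean ± SD). *Atf4* was at 11005 ± 1879, *Hspa5* at 10083 ± 1220 and *Asns* at 9520 ± 912. These 3 formed the top of the order, and neighbors among them differed by less than their spread. *Herpud1* followed at 4570 ± 655 and *Trib3* at 3783 ± 629. *Atf3* at 2620 ± 709, *Xbp1* at 1819 ± 162, *Ddit3* at 1509 ± 355 and *Chac1* at 1418 ± 258 came next, and neighbors among the last 3 of these differed by less than the SD of *Ddit3*. *Ppp1r15a* was lowest at 838 ± 298. The fewest reads behind any value was 1160, so counting error was small beside the spread between tumors.

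Tumors of 1 group differed from each other more than the groups did for several of these genes, and they differed together. After the mean of each group was removed, tumor 9 lay 0.36 above its group mean on the log2 scale for *Atf4*, 0.56 for *Ddit3*, 0.37 for *Trib3* and 0.61 for *Ppp1r15a*. Tumor 10 lay 0.30, 0.37, 0.10 and 0.67 above it for the same genes. Tumor 6 lay on the other side, at -0.41, -0.58, -0.38 and -0.98. The same 3 tumors showed no such order in *Hspa5*, where the deviations were -0.23 in tumor 9, 0.09 in tumor 10 and 0.07 in tumor 6.

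**Figure D3:**
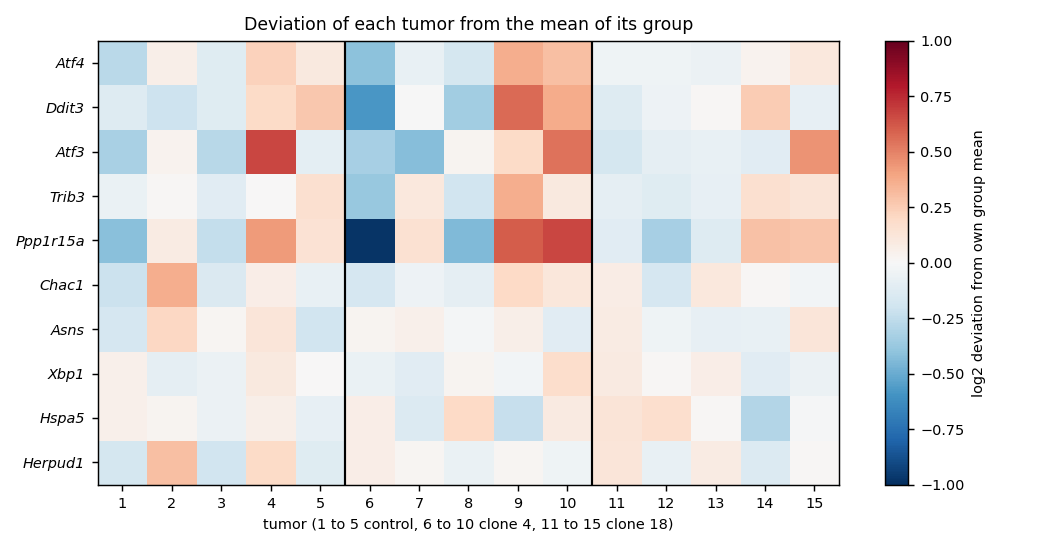
Each cell is the deviation of 1 tumor (x axis, tumors 1 to 15) from the mean of its own group for 1 gene (y axis) on the log2 scale, red above and blue below. The upper 5 genes change color together in tumors 6, 9 and 10 of clone 4, where *Ppp1r15a* ranges from -0.98 in tumor 6 to 0.67 in tumor 10.

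All 45 pairs of the 10 genes were then correlated over the 15 tumors with group means removed (two-sided permutation within groups, 100000 resamples, Benjamini-Hochberg over 45 pairs). Of these, 34 had a positive Pearson's r, the median r was 0.26, and 7 passed an adjusted p under 0.05. All 7 were positive. The highest was that of *Atf4* with *Ppp1r15a* (r = 0.95, permutation p = 1e-05, the smallest the resamples can give, adjusted p = 0.00045; rho = 0.90, permutation p = 0.00048, adjusted p = 0.0216). Next came *Trib3* with *Ppp1r15a* (r = 0.89, permutation p = 0.00057, adjusted p = 0.0114; rho = 0.83, permutation p = 0.00262, adjusted p = 0.0589). *Ddit3* with *Trib3* followed (r = 0.88, permutation p = 0.00076, adjusted p = 0.0114; rho = 0.74, permutation p = 0.00896, adjusted p = 0.0605). By rank, only the first of the 45 pairs passed after adjustment.

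Of these 7 pairs, 6 are all the pairs among *Atf4*, *Ddit3*, *Trib3* and *Ppp1r15a*, and the seventh is *Atf4* with *Atf3*. Without the 2 tumors farthest from the median of the first gene (tumors 9 and 6 for all 3 pairs above), r was 0.91 for *Atf4* with *Ppp1r15a*, 0.80 for *Trib3* with *Ppp1r15a* and 0.71 for *Ddit3* with *Trib3*. In the 10 knockout tumors alone, which include tumors 6, 9 and 10, the same pairs gave 0.94, 0.94 and 0.90. In the 5 control tumors alone they gave 0.996, 0.59 and 0.73. The lowest r of all were those of *Hspa5* with *Trib3* (r = -0.69, adjusted permutation p = 0.0769), with *Ddit3* (r = -0.56, adjusted permutation p = 0.195) and with *Ppp1r15a* (r = -0.47, adjusted permutation p = 0.328), and none of these 3 passed. By rank these 3 pairs gave rho of -0.76, -0.50 and -0.47, with adjusted permutation p of 0.0605, 0.262 and 0.317.

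**Figure D4:**
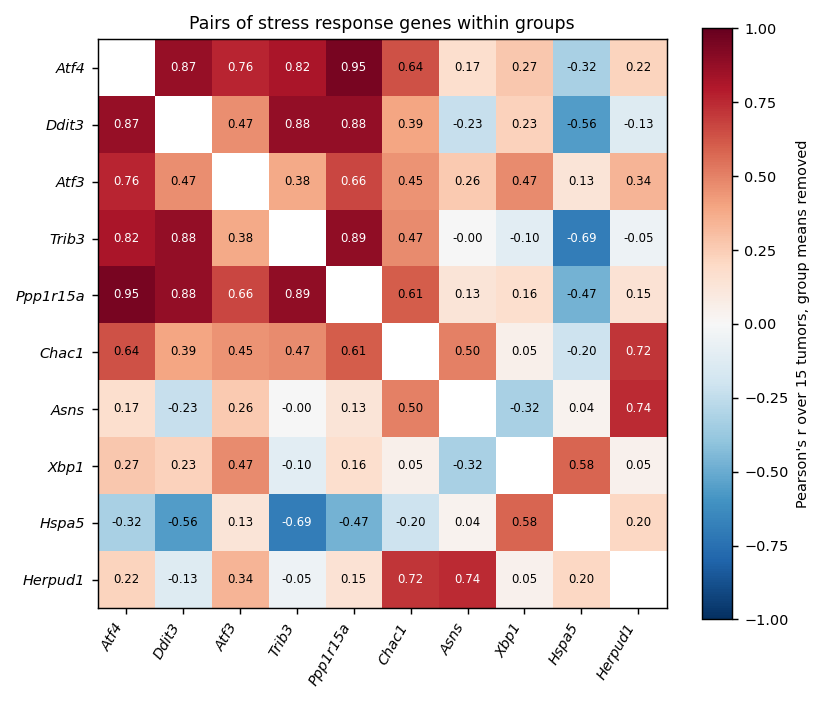
Each cell gives Pearson's r of 2 genes over 15 tumors on log2 values with group means removed. The block of high values at the upper left holds *Atf4*, *Ddit3*, *Trib3* and *Ppp1r15a*, with r from 0.82 to 0.95, and the row of *Hspa5* holds the lowest values, down to -0.69.

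Summed levels of other programs also differed between tumors of a group. The summed level of 15 hypoxia genes was 248886 normalized counts in tumor 9 and 308910 in tumor 10, 141963 in tumor 6, and 182033 and 209910 in tumors 7 and 8. The summed level of 20 immediate early genes was highest in clone 4 in tumor 10, at 48535, and lowest in tumor 6, at 25745, with 32914 in tumor 9. Among the controls both sums were highest in tumor 4, at 273227 and 52312, the tumor with the highest *Atf3*, *Atf4* and *Ppp1r15a* of its group. *Ddit3* and *Trib3* were instead highest in control tumor 5, at 2852 and 9391, with 2709 and 8447 in tumor 4. Control tumor 2 had a hypoxia sum of 262779 and the lowest *Ddit3* of the controls, at 2057. Neutrophil genes summed to 7244 in tumor 10 and to 1697 to 2895 in the other clone 4 tumors, while skeletal muscle genes summed to 981 and 1416 in tumors 9 and 10 and to 88.8 to 138 in tumors 6 to 8. The skeletal muscle sum was highest of all in tumor 11 of clone 18, at 2222. There *Atf4*, *Ddit3*, *Trib3* and *Ppp1r15a* lay -0.04, -0.13, -0.09 and -0.11 from their group mean on the log2 scale. Fibroblast genes summed to 196207 in tumor 10, the highest of all 15 tumors, and to 21343 in tumor 6, the lowest, with 65191 in tumor 9. Over all genes tumor 10 stood apart from the other clone 4 tumors: the chi-square of its reads against theirs, per degree of freedom, was 94.0 to 172, and it was 22.3 to 56.9 among the other 4. The part of these programs and cells in the shared variation was not tested.

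The other genes of the pathway were described by 7 lists, of which 123 of 125 genes were measured. Between knockout and control tumors 13 were called higher and 25 lower, which is 30.9% of them beside the 22.1% of all tested genes, and their median log2 difference was -0.04 beside -0.02. Among the 7725 genes whose mean reached 1000 normalized counts the share called was 25.9%. Not every gene of the lists reached that mean. The balance of directions was not the same in each comparison. Against control, 16 of the 123 were higher and 19 lower in clone 4, and 9 were higher and 34 lower in clone 18. In clone 18, 2 were higher and 12 lower than in clone 4. All tested genes also leaned lower against control, with 1684 called higher and 2356 lower in knockout tumors. For clone 4 alone 1240 were higher and 1831 lower, and for clone 18 alone 1901 were higher and 2598 lower. Between the clones, 455 of all tested genes were higher and 389 lower in clone 18 than in clone 4. The amino acid genes that ATF4 is known to drive held the most calls. Of 23 genes for amino acid synthesis and transport, 11 were called lower, 2 higher and 10 not, with a median log2 difference of -0.19. Their summed level ran from 211453 to 245050 in control, 188694 to 207795 in clone 4 and 175468 to 191791 in clone 18 tumors, so that no knockout tumor reached the lowest control.

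*Shmt2*, the mitochondrial serine hydroxymethyltransferase, fell from 14884 ± 1024 in control to 10438 ± 796 in clone 4 and 8362 ± 258 in clone 18 tumors, with no overlap (log2 difference -0.67 ± 0.08 (SE), adjusted p = 2.69e-05). *Cth*, which makes cysteine from cystathionine, fell from 1989 ± 157 to 1258 ± 138 and 854 ± 86.8, also with no overlap (log2 difference -0.94 ± 0.14 (SE), adjusted p = 0.000101). *Slc7a3*, a transporter of cationic amino acids, was at 646 ± 652 in controls, an SD as large as the mean, and at 1.68 ± 1.17 and 3.58 ± 2.72 in the clones (log2 difference -6.28 ± 0.92 (SE), adjusted p = 0.000106), with 9 of 10 knockout tumors below every control. The other direction was taken by *Pycr1*, a proline synthesis enzyme, at 624 ± 37.9, 1173 ± 145 and 846 ± 122 without overlap (log2 difference 0.67 ± 0.13 (SE), adjusted p = 0.00147), and by *Mthfd2* of mitochondrial folate metabolism (log2 difference 0.19 ± 0.06 (SE), adjusted p = 0.0336). *Mthfd2* was called in clone 4 and not in clone 18. *Shmt2*, *Cth*, *Slc7a3* and *Pycr1* were called in both clones. *Asns*, the member of this kind, was not called.

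Of 15 other ATF4-linked regulators, 4 were called lower and 1 higher (median log2 difference -0.12). With both clones together, 12.9% of all tested genes were called lower and 9.23% higher. *Gdf15*, a secreted stress hormone, was at 4055 ± 356 in control, 1352 ± 241 in clone 4 and 2661 ± 522 in clone 18 tumors (log2 difference -1.11 ± 0.23 (SE), adjusted p = 0.00193). *Sesn2*, an inhibitor of mTORC1, was at 2839 ± 423, 1979 ± 147 and 1861 ± 172 (log2 difference -0.56 ± 0.08 (SE), adjusted p = 0.000126), and neither gene overlapped between knockout and control tumors. *Fgf21*, another secreted hormone, was lower (log2 difference -0.41 ± 0.13 (SE), adjusted p = 0.0312), and *Ddit4*, a further mTORC1 inhibitor that hypoxia also raises, was higher (log2 difference 0.33 ± 0.10 (SE), adjusted p = 0.0224). *Fgf21* and *Ddit4* were called in clone 18 and not in clone 4, while *Gdf15* and *Sesn2* were called in both. Of 12 aminoacyl-tRNA synthetases, which charge tRNAs with amino acids, *Gars* (log2 difference -0.37 ± 0.08 (SE), adjusted p = 0.00254) and *Wars* (log2 difference -0.37 ± 0.09 (SE), adjusted p = 0.00979) were called lower, *Mars* higher as given above, and 9 were not called (median -0.04). *Gars* and *Mars* were called in both clones, and *Wars* in clone 18 and not in clone 4. By clone, 4 synthetases were higher and 1 lower in clone 4 than in control tumors, while 1 was higher and 4 were lower in clone 18. Between the clones 4 were lower and 0 higher in clone 18 than in clone 4. Of all tested genes 16.8%, 24.7% and 4.62% were called in these comparisons, in this order.

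Upstream, a list of 14 genes held the eIF2 kinases, eIF2, its exchange factor, *Ppp1r15b* and *Nck1*. Of these 14, 2 were called lower and 0 higher (median -0.12). With both clones together, 12.9% of all tested genes were called lower and 9.23% higher. By clone, 1 of the 14 was higher and 1 lower in clone 4 than in control tumors, while 6 were lower and 0 higher in clone 18. Between the clones 3 were lower and 0 higher in clone 18 than in clone 4. The shares of all tested genes called were 16.8%, 24.7% and 4.62%, in this order. The 2 called with both clones together were *Eif2ak3*, which encodes the ER stress kinase PERK, and *Ppp1r15b*, the constitutively expressed paralog of *Ppp1r15a*. *Eif2ak3* was at 2977 ± 146 in control, 2505 ± 336 in clone 4 and 2397 ± 141 in clone 18 tumors (log2 difference -0.29 ± 0.07 (SE), adjusted p = 0.00732). *Ppp1r15b* gave a log2 difference of -0.26 ± 0.07 (SE) with an adjusted p of 0.0119. Of 10 sensors and mediators of the unfolded protein response, *Ern1*, which encodes IRE1 (log2 difference 0.23 ± 0.07 (SE), adjusted p = 0.0269), and *Traf2*, an adaptor of IRE1 (log2 difference 0.21 ± 0.07 (SE), adjusted p = 0.0298), were called higher (median of the 10, 0.10). *Atf6* was called lower, from 11027 ± 769 in control to 8622 ± 684 and 7665 ± 1114 in the clones without overlap (log2 difference -0.45 ± 0.08 (SE), adjusted p = 0.00106). The genes of the 3 ER sensors moved in different directions, with *Ern1* higher and with *Eif2ak3* and *Atf6* lower. By clone, *Ern1* was called in clone 4 (adjusted p = 0.034) and not in clone 18 (adjusted p = 0.0886), while *Eif2ak3* and *Atf6* were called lower in both. *Traf2* was called in clone 4 and not in clone 18, and *Ppp1r15b* in clone 18 and not in clone 4.

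Among 20 ER chaperones and folding enzymes 4 were called higher, 3 lower and 13 not, with a median of 0.03. Of all tested genes 9.23% were called higher and 12.9% lower between knockout and control tumors. The largest rises were in *Creld2* (log2 difference 0.37 ± 0.11 (SE), adjusted p = 0.0198), *Pdia4*, a disulfide isomerase (log2 difference 0.24 ± 0.07 (SE), adjusted p = 0.0207), and *Hyou1*, an ER chaperone of the HSP70 type (log2 difference 0.22 ± 0.07 (SE), adjusted p = 0.0198). The falls were in the cochaperones *Dnajb11* (log2 difference -0.30 ± 0.09 (SE), adjusted p = 0.0164) and *Dnajc3* (log2 difference -0.22 ± 0.07 (SE), adjusted p = 0.0408) and in *Txndc5*, a disulfide isomerase (log2 difference -0.24 ± 0.06 (SE), adjusted p = 0.00482). Called in clone 4 and not in clone 18 were *Pdia4*, *Hyou1* and *Dnajc3*. *Creld2* and *Dnajb11* were called in clone 18 and not in clone 4, and *Txndc5* in both. Between the clones 0 of the 20 were called. Among 29 genes of ER degradation and secretion 3 were higher, 2 lower and 24 not called (median -0.02). *Sec61a1*, the channel of the ER translocon, rose from 15343 ± 606 in control to 19618 ± 1117 in clone 4 and 18936 ± 1536 in clone 18 tumors without overlap (log2 difference 0.33 ± 0.06 (SE), adjusted p = 0.000576), with *Selenok* (log2 difference 0.28 ± 0.08 (SE), adjusted p = 0.0211) and the signal recognition particle receptor *Srpr* (log2 difference 0.18 ± 0.05 (SE), adjusted p = 0.0121) also higher. *Sec63* (log2 difference -0.31 ± 0.09 (SE), adjusted p = 0.021) and *Derl1* of ER-associated degradation (log2 difference -0.21 ± 0.07 (SE), adjusted p = 0.0333) were lower. *Sec61a1* was called against control in both clones. *Selenok*, *Srpr*, *Sec63* and *Derl1* were called in clone 18 and not in clone 4. Between the clones 0 of the 29 were called.

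**Figure D5:**
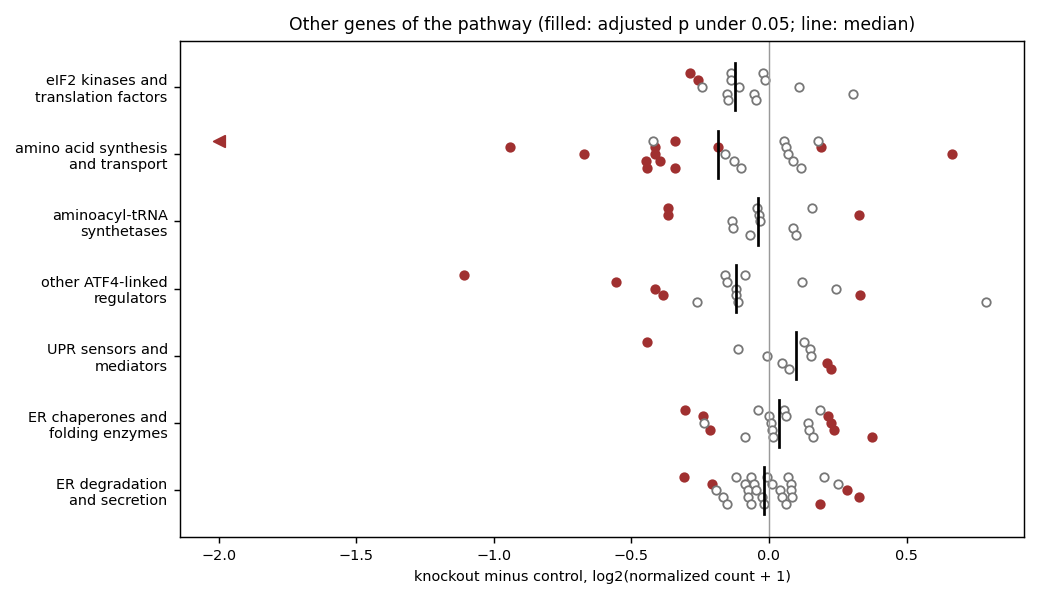
Each point is 1 gene of 7 pathway lists (rows), with its log2 difference between knockout and control tumors on the x axis; filled points passed an adjusted p under 0.05, vertical lines are list medians, and the arrowhead at -2 stands for *Slc7a3* at -6.28. The amino acid list has 11 filled points on the lower side and 2 on the higher side, while the ER lists spread to both sides of 0.

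In the promoter windows of these lists, the C/EBP-ATF element was in 5 of 18 matched amino acid genes, 5 of 7 aminoacyl-tRNA synthetases and 4 of 12 regulators. It was in 1 of 18 chaperones, 1 of 12 genes of the eIF2 list and 0 of 23 degradation and secretion genes. The ER stress response element was in 6 of 18 chaperones and 1 of 23 degradation and secretion genes. The unfolded protein response element TGACGTGG was in 2 of 18 chaperones and 2 of 23 degradation and secretion genes.

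Other stress programs are given against the same background of 22.1% of all tested genes. Of 10 genes of mitochondrial protein stress 0 were called between knockout and control tumors by limma, edgeR or DESeq2 and 0 had an unadjusted p under 0.05 (median -0.10). In clone 18, 3 of these 10 were called lower against the controls and 2 lower than in clone 4. Of all tested genes 14.2% and 2.13% were called lower in these 2 comparisons. Of 15 cytosolic heat shock genes 2 were higher, *Hsph1* (log2 difference 0.45 ± 0.14 (SE), adjusted p = 0.0291) and *Chordc1* (log2 difference 0.25 ± 0.08 (SE), adjusted p = 0.0268). *Hsph1* was called in clone 18 and not in clone 4, and *Chordc1* in clone 4 and not in clone 18. Of 20 immediate early genes 3 were lower, led by the phosphatase gene *Dusp1*, at 4559 ± 1097 in control, 1953 ± 579 in clone 4 and 1933 ± 320 in clone 18 tumors (log2 difference -1.23 ± 0.15 (SE), adjusted p = 2.64e-05), followed by *Zfp36* (log2 difference -0.57 ± 0.14 (SE), adjusted p = 0.00651) and *Btg2* (log2 difference -0.54 ± 0.09 (SE), adjusted p = 0.000517). Of 15 hypoxia genes *Ankrd37* (log2 difference 1.40 ± 0.30 (SE), adjusted p = 0.00291) and *P4ha1* (log2 difference 0.38 ± 0.10 (SE), adjusted p = 0.0142) were higher and *Ndrg1* (log2 difference -0.48 ± 0.15 (SE), adjusted p = 0.0273) and *Pfkfb4* (log2 difference -0.41 ± 0.08 (SE), adjusted p = 0.00206) lower. *Ndrg1* was called in clone 18 and not in clone 4, and *Ankrd37*, *P4ha1* and *Pfkfb4* were called in both. Of 9 proliferation genes 0 were called by limma, edgeR or DESeq2, and 1 had an unadjusted p under 0.05 by each.

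Summed levels of markers of other cells are given beside these results. Of the sums given here, only that of the macrophage genes separated all knockout tumors from all controls. Macrophage genes summed to 87343 to 114286 normalized counts in control, 68167 to 84723 in clone 4 and 61918 to 82355 in clone 18 tumors, without overlap between knockout and control. Of these 11 genes 4 were called lower and 0 higher in clone 4 against control, and 8 lower and 1 higher in clone 18. Of all tested genes 10.0% were called lower and 6.8% higher in clone 4, and 14.2% lower and 10.4% higher in clone 18. Plasma and B cell genes summed to 32979 to 36099, 28301 to 31560 and 28121 to 36180, almost all of it *Sdc1*, which epithelial cells also express, while *Mzb1* and *Pou2af1* had means under 10 and *Tnfrsf17* was not analysed here. T and NK cell genes summed to 585 to 2076, 634 to 980 and 571 to 786, neutrophil genes to 2595 to 4211, 1697 to 7244 and 1742 to 2963, and skeletal muscle genes to 166 to 462, 88.8 to 1416 and 165 to 2222. The part of these cells in the values of *Chac1*, *Herpud1* and *Xbp1* was not tested.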

How the data were processed

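RNA of 15 tumors was measured, 5 per group, with groups taken from the sample labels. The authors deposited 1 table of normalized signal per gene, that is read counts divided by a size factor per tumor. The submitters' processing notes name TopHat2, HTSeq, DESeq and mm10, without versions. The study's methods align to mm10 with TopHat2. Among values up to 8000, 99.99% or more per tumor came out as whole multiples of 1 step (tolerance 0.05 of a normalized count), and reads were recovered in this way for the count tests. All 15 columns were assigned and the 30 pairs of tumors within groups differed by more than counting noise (chi-square over its degrees of freedom, 18.6 to 172). The labels do not say that tumors of a group came from separate cultures, so p-values measure the spread between these tumors. The labels give no batch.

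The main test was limma 3.58.1 (R 4.3.3) with trend on log2(normalized count + 1), two-sided, with Benjamini-Hochberg adjustment over 18250 genes. Log2 differences on this scale understate changes of low genes. Knockout against control was a fit of both groups, and the clone comparisons came from 1 fit of 3 groups. Intervals are 95% intervals of the moderated test. Exact permutation tests used all 3003 splits into 5 and 10 tumors. Alternatives were pseudocounts of 0.1 and 5, a mean of at least 10, upper quartile and quantile normalization, limma without trend, each pair of groups alone, edgeR 4.0.16, DESeq2 1.42.0 and leaving out each tumor; leaving out tumors 9 and 10 together was added after their values were seen. The code was tested on simulated data. Positions are from GENCODE M21 (GRCm38), which matches mm10.

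The 10 genes and the lists (7 of the pathway, 5 of other stress programs including proliferation, 11 of cell type markers) were chosen with earlier results of these data known, so their directions are not independent evidence. Named from each pathway and other stress list were at most 3 called rises and 3 called falls, by size, with a mean of at least 10, and the 3 highest and 3 lowest pairs. *Krt8*, *Sdc1*, *Mzb1*, *Pou2af1*, *Tnfrsf17* and *Tulp2* were named outside that rule after their values were seen.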

Additional observations from a re-analysis of the deposited data

Results flagged for a closer look

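*Atf3* in clone 18 had 1 tumor far from the others: tumor 15 read 7553 normalized counts and the other 4 tumors read 4889 to 5246, a gap of 0.866 of the whole range where 0.71 is the 95% limit for 5 values. Of 30 groups checked (10 genes in 3 groups), this was the 1 past the limit, and chance flags about 1 in 20 groups. In the same tumor the 20 immediate early genes summed to 37636 normalized counts and the 15 hypoxia genes to 235936, each the highest of clone 18.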

How the results depend on the processing

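*Chac1* kept its call between knockout and control tumors, and in clone 18, under each alternative run; *Xbp1* kept its call in 12 of 24 and *Herpud1* in 9 of 24 between knockout and control tumors. With 1 tumor left out, the members called numbered 1 to 3 for knockout against control, 0 to 2 for clone 4, 2 to 4 for clone 18 and 0 to 1 between the clones. The member count for knockout against control was 1 for limma without trend. For clone 18 it was 4 with each pair of groups alone, 4 by DESeq2 and 4 without tumors 9 and 10 together. DESeq2 called 1359 genes between the clones, against 844. Members without overlap numbered 0 with both clones, 1 with clone 4 alone and 3 with clone 18 alone.

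Among the 10 genes, signs turned only for log2 differences that were not called. *Atf4* between knockout and control was 0.0146 under quantile normalization, 0.00025 by edgeR and -0.0951 to 0.0299 with 1 tumor left out. *Asns* in clone 18 was 0.00178 under upper quartile, 0.0575 under quantile normalization and -0.0654 to 0.0342 with 1 tumor left out. *Ddit3* in clone 18 ranged over -0.0162 to 0.113 and *Trib3* in clone 4 over -0.0517 to 0.135 with 1 tumor left out. Without tumors 9 and 10 together, a choice made after seeing the data, *Ddit3* was -0.0015 between knockout and control, and in clone 4 *Atf4* was -0.13, *Ddit3* -0.0816 and *Trib3* -0.12. The clone 18 minus clone 4 values were then 0.13 for *Ddit3*, 0.0675 for *Atf3* and 0.0272 for *Ppp1r15a*, and *Ppp1r15a* between knockout and control was -0.70 with an adjusted p of 0.0102. The causes were not tested, beyond the fewer tumors that such fits hold. The median log2 difference of the aminoacyl-tRNA synthetases turned from -0.04 to 0.0073 and that of ER degradation and secretion from -0.02 to 0.01 under quantile normalization. No scaling moved the median of all genes by more than 0.1. No paired analysis was possible because the labels give each tumor its own number.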
